A study of Mus musculus with 18 samples.

Results

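The comparison described here set kidneys of TIMP3-/- mice 3 days after unilateral ureteral obstruction (UUO) against kidneys of TIMP3-/- mice after a sham operation. Members were chosen by label alone: the 3 arrays of TIMP3-/- UUO and the 3 arrays of TIMP3-/- sham, 6 of the 18 arrays of the series. Each array held total RNA from an ipsilateral kidney, hybridised to the Affymetrix Mouse430A_2 expression array, on which a gene is read by 1 or several probe sets. The other 12 arrays came from wild type (WT) and TIMP2-/- mice, 3 per genotype and operation. All groups carried the C57BL/6 strain label. In UUO the proximal right ureter was tied with its vessels and nerves left intact, and sham surgery left the ureter open. The knockouts were labelled -/- without a cell type or promoter, the age and sex of the mice were not given in the sources used here, and the samples were labelled as biological replicates. An array is named by operation and replicate number, and 3 values in a row follow the order of replicates 1, 2 and 3.

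TIMP3, a tissue inhibitor of metalloproteinases, is bound to the extracellular matrix and inhibits matrix metalloproteinases as well as ADAM proteases such as ADAM17. ADAM17 releases TNF and ligands of the EGF receptor from the cell surface. After ureteral obstruction, tubular cells are stretched and injured, leukocytes enter the interstitium, and fibroblasts and pericytes take on a contractile, matrix-producing state, which makes UUO a standard model of renal fibrosis.

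The Timp3 probe set with the highest mean level read 60.8, 41.7 and 45.1 on the sham arrays and 35.1, 40.5 and 35.1 on the UUO arrays of TIMP3-/- kidney, in linear intensity units. On the 12 arrays of the other genotypes it lay between 3171 and 9040. These 6 values lay near or below 56.8, the lowest 25th percentile of any array, under which a level is called dim here and the size of a change is inexact. Median intensities of the 18 arrays ran from 201 to 247. Correlations across probe sets were 0.983 to 0.996 between the TIMP3-/- sham arrays and 0.954 to 0.979 between the UUO arrays. UUO 2 stood apart from the other 5, with a score of -55.2 on the second principal component where the other 5 lay between -30.7 and 21.7. The log2 ratio of the 3′ to the 5′ control probe set of Gapdh, a sign of RNA integrity, lay between -0.11 and -0.01 on the 6 arrays. For Actb the same ratio lay between 0.49 and 0.55 on sham and between 0.37 and 0.48 on UUO. Xist, the marker of female cells, was at 40.2 to 88.6 on the 6 arrays, and the Y-linked Eif2s3y read 90.2, 69.9 and 57.9 on sham and 281, 1101 and 137 on UUO, far highest on UUO 2 (change 2.29 ± 0.55, adjusted p = 0.00282). The part of sex in the results was not tested. In whole tissue, fewer cells of a type and less RNA per cell cannot be told apart.

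Obstruction changed most of the measured transcriptome of TIMP3-/- kidney. In limma's moderated test over all 18 arrays, 14145 of 22626 probe sets passed at an adjusted p under 0.05 (62.5%). Of these 5663 were higher (25.0% of those tested) and 8482 lower (37.5%). With each gene shown by its probe set of highest mean level, 3173 of 12393 genes were higher (25.6%) and 4808 lower (38.8%), 64.4% in all. The groups did not overlap in 2950 genes with higher UUO values (23.8%) and 4897 with lower ones (39.5%), 63.3% in all. Large changes were more often rises, with 581 genes higher and 305 lower by over 2 on the log2 scale, and 40 and 22 by over 4. The median change of all genes was -0.19. Among the 25% of genes with the lowest mean level, 11.0% rose, 49.2% fell and the median change was -0.37. When each array was instead centred on its median, which moved the median change of all genes by -0.23, the probe sets that passed were 27.2% higher and 72.8% lower, against 40.0% and 60.0% as deposited. The deposited distributions differed by operation, with median intensities of 214, 202 and 201 on sham and 242, 247 and 235 on UUO. Normalization before deposit could still have removed part of a change common to the whole transcriptome, which was not tested.

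**Figure D1:**
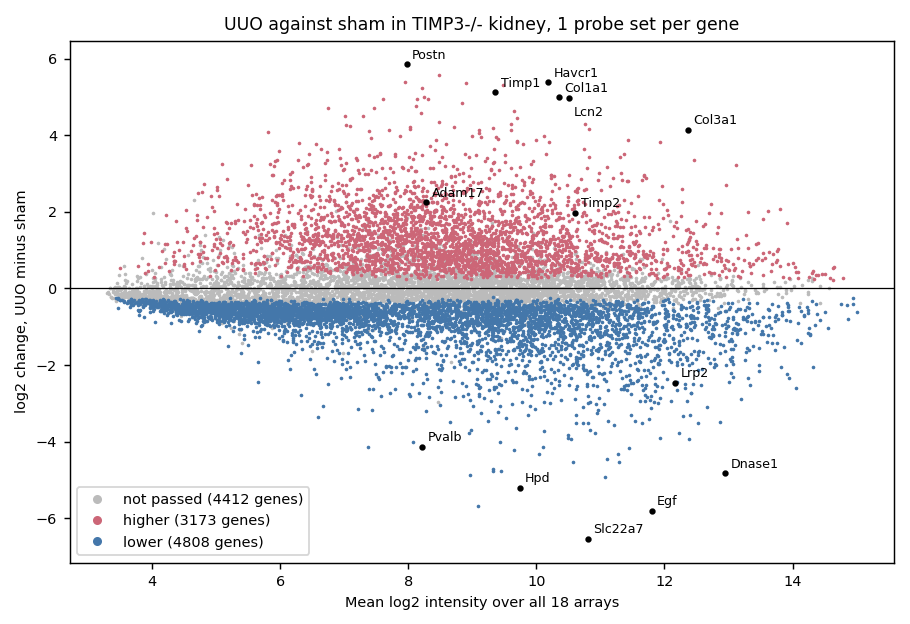
Each point is 1 of 12393 genes in TIMP3-/- kidney, with the mean log2 intensity over all 18 arrays on the horizontal axis and the log2 change of UUO minus sham on the vertical axis; red and blue points passed limma's test at an adjusted p under 0.05 and 14 genes are named. Rises reach 5.85 (Postn) and falls -6.54 (Slc22a7), and genes at the lowest levels lie mostly below 0.

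Among the 12 largest rises were genes of matrix, contractile cells, injured tubule and the acute phase response. Postn, which encodes periostin, a matricellular protein of activated fibroblasts, read 61.4, 56.7 and 52.1 on sham and 9063, 11485 and 331 on UUO. The change was 5.85 ± 0.97 on the log2 scale (± standard error of the fit, n = 3 arrays per group, adjusted p = 0.000181). UUO 2 and UUO 1 were far above UUO 3, which was itself above every sham array. Actg2, the enteric smooth muscle actin, rose from 93.8, 90.0 and 120.3 to 11854, 6668 and 1409, a change of 5.58 ± 0.86 (adjusted p = 9.49e-05), again with UUO 3 lowest of the UUO arrays. Hp, the haemoglobin-binding acute phase protein haptoglobin, read 120.3, 117 and 112 on sham and 13663, 7591 and 933 on UUO (change 5.30 ± 0.83, adjusted p = 0.000105). F13a1, the coagulation factor XIII subunit carried by macrophages, rose by 4.95 from dim sham levels. The other rises among the 12, Sprr2f, Havcr1, Adipoq, Lox, Timp1, Cd44, Col1a1 and Lcn2, are described with their gene groups.

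The 12 largest falls were mostly genes of proximal tubule metabolism and transport. Slc22a7, the organic anion transporter OAT2, read 5890, 7213 and 6855 on sham and 75.4, 56.2 and 85.8 on UUO, a change of -6.54 ± 0.58 (adjusted p = 1.22e-06). The UUO values lay near the dim level, so that the size of the fall is inexact. Dnase1, the secreted endonuclease, fell from 23519, 23900 and 24907 to 805, 524 and 1470 (change -4.82 ± 0.50, adjusted p = 3.84e-06). Hpd, an enzyme of tyrosine breakdown, read 2384, 3444 and 2471 on sham and 74.2, 55.1 and 100.1 on UUO (change -5.20 ± 0.61, adjusted p = 9.68e-06). Changes of -4.87, -4.78, -4.75, -4.71 and -4.54 were measured for Ces1e (a carboxylesterase), Gpx6 (a glutathione peroxidase family member), Hsd3b2 (a hydroxysteroid dehydrogenase), Clec2h (a C-type lectin-like protein) and Spp2 (a secreted phosphoprotein), with no overlap between groups. Hsd3b2 and Cyp2d12 belong to families of near-identical genes, whose probe sets could read more than 1 member.

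**Figure D2:**
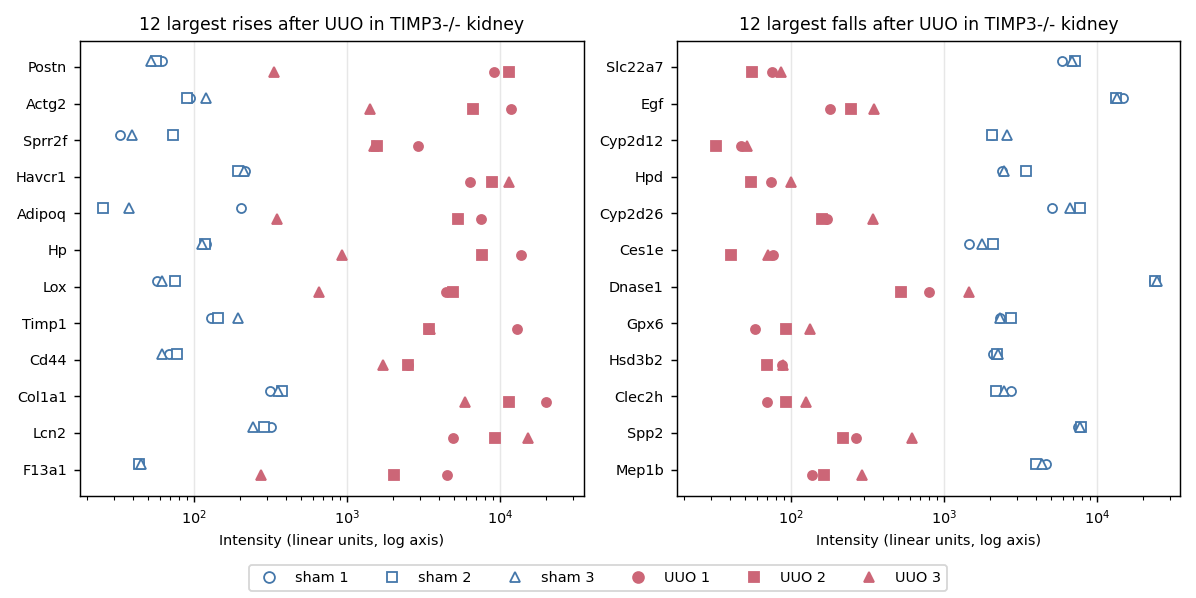
Intensities (linear units on a log axis) of the 12 largest rises and the 12 largest falls in TIMP3-/- kidney; open symbols are the 3 sham arrays, filled symbols the 3 UUO arrays, and the symbol shape gives the replicate. In none of the 24 genes do the groups overlap. UUO 3 lies nearest to the sham values for Postn, Actg2, Adipoq, Hp, Lox and F13a1, among other genes of both panels.

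Genes that mark injured tubule rose throughout: 17 of 17 measured passed as higher, with a median change of 2.95 against -0.19 over all genes. Havcr1, which encodes KIM-1, a phosphatidylserine receptor of damaged proximal tubule, read 216, 194 and 212 on sham and 6327, 8836 and 11423 on UUO (change 5.38 ± 0.21, adjusted p = 5.14e-10). Lcn2, the iron-siderophore carrier NGAL, rose from 318, 289 and 245 to 4910, 9255 and 15144 (change 4.97 ± 0.34, adjusted p = 1.31e-07). For both genes UUO 3 was the highest array and UUO 1 the lowest, whereas UUO 3 was the lowest for Postn and Actg2. Cd44, a hyaluronan receptor, rose from 68.9, 76.9 and 61.4 to 2489, 2515 and 1716, and Vcam1, an adhesion molecule, by 4.64. Clu, the chaperone clusterin, was already bright in sham (6663, 9523 and 8216) and reached 23677, 27266 and 28871, a change of 1.72 ± 0.15. The keratins of simple epithelium Krt8, Krt18, Krt19 and Krt7 rose by 1.13, 2.56, 4.13 and 0.88, and Vim, the mesenchymal filament vimentin, by 2.95. Sox9, a transcription factor of regenerating tubule, rose by 1.19.

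The endocytic receptors of the proximal tubule fell. Lrp2, which encodes megalin, read 10030, 8390 and 8459 on sham and 1315, 1601 and 2035 on UUO (change -2.46 ± 0.25, adjusted p = 3.30e-06). Cubn, its partner cubilin, fell from 8545, 7069 and 8320 to 1040, 1221 and 1854 (change -2.58 ± 0.25). Amn, which anchors cubilin in the membrane, fell by 1.87. Clcn5, the endosomal chloride exchanger, did not pass (-0.10), so 4 of 5 members were lower. With the mean of a gene's probe sets it passed (-0.44, adjusted p = 0.0175), and 5 of 5 were lower. Dab2, the endocytic adaptor, changed by -0.69 ± 0.11 on the probe set of highest level, and by -0.11 (adjusted p = 0.704) on the probe set without a suffix in its name, a suffix that marks possible reading of several transcripts.

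Solute carriers fell with them. Of 17 measured carriers of glucose, phosphate, amino acids and sulfate in the proximal tubule, 16 were lower and none higher (median -2.33). Slc5a2, the glucose cotransporter SGLT2, read 9049, 11964 and 10530 on sham and 864, 912 and 1386 on UUO (change -3.34 ± 0.33, adjusted p = 2.61e-06). Slc34a1, the main phosphate cotransporter, fell by 2.33, and Slc7a13, an amino acid carrier of the straight segment, by 3.51 from 15330, 11807 and 13429 to 1208, 838 and 1638. The exception was Slc13a1, a sulfate cotransporter, with 10277, 11011 and 10202 on sham and 8843, 10823 and 13266 on UUO (change 0.05 ± 0.16, adjusted p = 0.806). Its groups overlapped while the changes of the other 16 ran from -3.51 to -1.04.

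Among the Slc22 carriers of organic anions and cations 12 of 12 measured were lower, with a median of -3.28, the lowest of the 54 lists. Slc22a8 (OAT3) fell from 6780, 8421 and 8046 to 353, 258 and 627, a change of -4.32 ± 0.62 (adjusted p = 4.89e-05). Slc22a6 (OAT1) fell by 3.12 and Slc22a2 (OCT2) by 2.61. Slc22a12, the urate exchanger URAT1, read 18257, 20550 and 19443 on sham and 4359, 3466 and 5588 on UUO (change -2.14 ± 0.34). The carnitine carriers Slc22a5 and Slc22a4 had the smallest falls, 1.91 and 1.66. Brush border peptidases were less even: 6 of 8 were lower, led by Mep1b (meprin β, -4.53 ± 0.44) and Dpep1 (a dipeptidase, -2.03 ± 0.27), whereas Mme (neprilysin) at 0.85 and Dpp4 at 0.43 did not pass.

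Metabolic enzymes of the proximal tubule were lower in nearly the whole of each list. In amino acid and pyrimidine breakdown 18 of 19 were lower (median -2.53). Dpys, which opens the dihydropyrimidine ring, fell from 712, 939.7 and 841 to the dim values 47.4, 46.9 and 60.7 (change -4.01 ± 0.33). Haao of the kynurenine pathway fell by 3.77, and Fah, the last enzyme of tyrosine breakdown, from 9759, 11058 and 11607 to 1778, 1387 and 2705 (change -2.52 ± 0.28). In gluconeogenesis and fructose use 5 of 5 were lower (median -2.85). G6pc, the glucose-6-phosphatase, read 7313, 8254 and 9888 on sham and 441, 377 and 616 on UUO (change -4.17 ± 0.50, adjusted p = 1.25e-05). Fbp1, fructose-1,6-bisphosphatase, fell from 27143, 26510 and 28205 to 4915, 4444 and 7345, and Pck1 by 1.98. Of 12 cytochrome P450 genes 9 were lower, with Cyp2d26 at -4.92 ± 0.39, and 1 was higher: Cyp1b1, a P450 of mesenchymal cells, rose from 407, 231 and 228 to 1742, 2984 and 1295 (change 2.76 ± 0.35, adjusted p = 1.74e-05).

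Mitochondrial genes fell by less. Of 16 genes of fatty acid oxidation 13 were lower (median -1.08), with the largest fall in Ppara, the nuclear receptor that drives this pathway, which read 2159, 2066 and 1790 on sham and 220.5, 294 and 438 on UUO (change -2.71 ± 0.24, adjusted p = 1.34e-06). The not-passed members were Ppargc1a (-0.44), Acadl (-0.29) and Pdk4 (1.18), of which Pdk4 passed without sham 1 (adjusted p = 0.0119) or UUO 3 (0.0414). Oxidative phosphorylation and the citrate cycle had 19 of 20 lower, and the 20 changes ran from -1.39 to -0.11 (median -0.87). Sdhb, the iron-sulfur subunit of complex II, fell from 15976, 17732 and 17628 to 6740, 4985 and 8260 (change -1.39 ± 0.20). Atp5b, the catalytic subunit of ATP synthase, fell from 25647, 26089 and 27713 to 13956, 13293 and 18302 (change -0.82 ± 0.14). UUO 2 had the lowest Sdhb value and UUO 3 the highest of the UUO arrays, and the same order held for Atp5g1 and Ndufs3.

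Glycolysis was mixed, with 2 of 12 higher, 6 lower and a median of -0.39. Hk2, the inducible hexokinase, rose from 95.3, 106 and 105 to 568, 324 and 364 (change 2.00 ± 0.28), and Pfkp rose by 0.67. Averaged over its probe sets, Pfkp was at 0.18 (adjusted p = 0.23), and the list had 1 higher and 7 lower. Tpi1 and Pgk1 of the lower pathway fell by 0.76 and 0.73. Without UUO 2 the count was 3 higher and 3 lower, and Aldoa (-0.41 with all arrays) did not pass (adjusted p = 0.0954), nor did it without sham 2 (0.0755), sham 3 (0.0569) or UUO 1 (0.0514). Of 17 antioxidant enzymes 12 were lower (median -0.85), Gpx3, the plasma glutathione peroxidase made by proximal tubule, from 33987, 36149 and 35602 to 16692, 19238 and 26552 (change -0.79 ± 0.16). The member that rose was Nfe2l2, the transcription factor NRF2, by 0.94 ± 0.18, whereas its target Nqo1 fell by 1.45 ± 0.27 and Hmox1 did not pass (0.32).

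Further along the nephron, falls were large for some genes and absent for others within the same segment. In the loop of Henle 6 of 9 were lower. Egf, the growth factor made by the thick ascending limb and distal tubule, read 14921, 13382 and 13465 on sham and 179, 248 and 348 on UUO (change -5.80 ± 0.59, adjusted p = 3.33e-06). Umod, the uromodulin of the same segment, read 24620, 24001 and 23984 on sham and 13310, 21789 and 21710 on UUO, a change of -0.39 ± 0.18 that did not pass (adjusted p = 0.072) but passed without UUO 2 (adjusted p = 0.0426) or UUO 3 (adjusted p = 0.035). Slc12a1, the cotransporter NKCC2, fell from 8546, 4811 and 4287 to 637, 2580 and 1264 (change -2.14 ± 0.51), with the lowest value on UUO 1. In the distal and connecting tubule 9 of 12 were lower. Pvalb, the calcium buffer parvalbumin, fell from 1007, 1204 and 1171 to 55.2, 65.1 and 73.7 (change -4.13 ± 0.28, adjusted p = 1.05e-07), and Calb1 (calbindin) by 3.24 ± 0.50. Kl, the FGF23 co-receptor Klotho, fell from 7742, 6140 and 6838 to 722, 851 and 1440 (change -2.84 ± 0.31). Atp1b1 of the sodium pump (-0.38) did not pass, but did without UUO 2 (adjusted p = 0.0359).

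Collecting duct genes fell as well. In principal cells 7 of 10 were lower: the water channel Aqp2 fell from 3487, 2633 and 2599 to 389, 509 and 969 (change -2.32 ± 0.52, adjusted p = 0.00173), the vasopressin receptor Avpr2 by 2.33 ± 0.51 and Aqp3 by 1.74 ± 0.26. Hsd11b2, which protects the mineralocorticoid receptor from glucocorticoids, did not pass (-0.22). In intercalated cells 7 of 8 were lower, led by the anion exchanger Slc4a1 (AE1), from 1021, 1671 and 1257 to 77.5, 77.9 and 159 (change -3.71 ± 0.57), and pendrin, Slc26a4 (-2.43 ± 0.29). Car2, a carbonic anhydrase, overlapped between groups and did not pass (-0.51), but did without UUO 3 (adjusted p = 0.0153). For Avpr2, Aqp2, Slc4a1 and Rhcg the UUO 3 value was the highest of the UUO arrays by over 1.5-fold. Slc4a1 is also a red cell gene: the red cell list fell too, with Alas2, the haem synthesis enzyme of erythroid cells, going from 452, 798 and 676 to 112, 77.7 and 80.0, and the part of red cells in the Slc4a1 value was not tested.

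Of 8 transcription factors of the nephron 6 were lower. Hnf4a, the factor of proximal tubule differentiation, read 10699, 10944 and 11018 on sham and 2350, 2809 and 4225 on UUO (change -1.84 ± 0.20, adjusted p = 6.46e-06). Nr1h4, the bile acid receptor FXR, fell by 2.05 ± 0.26 and Vdr, the vitamin D receptor, by 1.57. Pax8 (-0.23) and Tfcp2l1 (0.06), a collecting duct factor, did not pass, though Pax8 did without UUO 3 (-0.60, adjusted p = 0.0145).

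Glomerular and vascular genes gave smaller and mixed changes. Of 9 podocyte markers 5 were higher and 1 lower. The slit diaphragm gene Nphs1 (nephrin) fell from 300.4, 365 and 368 to 124, 156 and 190.1 (change -1.15 ± 0.21, adjusted p = 0.000383). Synpo, an actin-associated protein of foot processes, rose from 491, 752 and 567 to 2057, 1358 and 1543 (0.36 when its probe sets were averaged, adjusted p = 0.0516), while Wt1 (0.02) and Podxl (-0.29) did not pass. Averaged over its probe sets, Podxl passed (-0.53, adjusted p = 0.0167). Cd2ap read 651, 3291 and 454 on the UUO arrays, a change of 2.45 ± 0.66 with UUO 2 far the highest. Among 16 endothelial markers 6 rose and 2 fell, and the median change was 0.22 as deposited and -0.01 after median centring. Selp (P-selectin) rose from 62.7, 85.1 and 73.5 to 418, 269.8 and 135 (change 1.76 ± 0.43), Vwf (von Willebrand factor) by 1.66 ± 0.40 and Cdh5 (VE-cadherin) by 1.35 ± 0.30. Ehd3 and Flt1, endothelial genes of the glomerulus and of VEGF reception, fell by 0.55 and 0.44, and Flt1 did not pass without sham 3 (adjusted p = 0.0544) or UUO 2 (0.06) or when its probe sets were averaged (-0.19, 0.125). The bright endothelial markers Plvap (0.22) and Emcn (-0.08) did not pass.

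The remaining TIMP genes did not move together. Timp1, the soluble and inducible inhibitor, rose from 129, 144 and 195 to 12814, 3457 and 3464 (change 5.12 ± 0.52, adjusted p = 3.50e-06), with UUO 1 highest. Timp2, which inhibits metalloproteinases and also helps activate pro-MMP2, read 1237, 1274 and 1129 on sham and 5304, 4785 and 4242 on UUO (change 1.97 ± 0.16, adjusted p = 5.88e-07). Of the 6 Timp2 probe sets, 5 lay above the dim level and were higher on every UUO array than on every sham array, and the dim one was lower. Reck, a membrane-anchored inhibitor, rose by 0.82 ± 0.16. Timp4 was dim in both groups (52.6, 58.3 and 58.3 on sham and 49.4, 39.0 and 42.3 on UUO), and its change of -0.38 did not pass without sham 2, sham 3, UUO 2 or UUO 3 (adjusted p from 0.0511 to 0.0962), or when its probe sets were averaged (-0.10, 0.616).

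Proteases rose in part. Of 15 matrix metalloproteinases 7 were higher, 1 lower and 7 did not pass. Mmp2, the gelatinase of fibroblasts, read 209, 258 and 213 on sham and 5710, 3913 and 1880 on UUO (change 3.94 ± 0.37, adjusted p = 1.79e-06). Mmp14, the membrane protease that activates it, rose from 359.7, 429 and 392 to 9338, 5654 and 3323 (change 3.83 ± 0.40). Mmp9, the gelatinase of leukocytes, read 95.0, 106 and 108 on sham and 1319, 147 and 109.7 on UUO, a change of 1.43 ± 0.83 that did not pass (adjusted p = 0.142), and UUO 1 lay far above the other 5 arrays. Without UUO 3 it passed (adjusted p = 0.047). Mmp3 (stromelysin 1), Mmp12 (macrophage elastase) and Mmp7 (matrilysin) rose by 3.22, 3.00 and 1.89, Mmp3 from dim sham levels.

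ADAM and ADAMTS proteases, several of which TIMP3 inhibits, had 10 of 12 higher and none lower (median 2.06). Adam17, the TNF-converting enzyme, read 250.1, 116 and 154 on sham and 825, 989 and 589 on UUO (change 2.25 ± 0.33, adjusted p = 6.14e-05). Adam10, a related sheddase, rose by 2.88, Adam12 by 3.43 ± 0.35 and Adam19 by 3.18 ± 0.34. Adamts1, which cleaves versican, rose from 356, 235 and 229 to 1758, 4499 and 2308 (change 3.30 ± 0.35), with UUO 2 highest. Adam15 (0.03) did not pass. In the plasminogen system Plat, the tissue activator, rose from 1290, 1241 and 1096 to 4519, 4672 and 4627 (change 1.93 ± 0.13, adjusted p = 1.17e-07), and Plau, the urokinase, did not pass (-0.24). Serpinf2, the plasmin inhibitor α2-antiplasmin, fell from 5375, 6723 and 6340 to 795, 642 and 1304 (change -2.81 ± 0.29), whereas Serpinf1 (PEDF) rose by 3.98 ± 0.64.

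The list of interstitial collagens was higher in 14 of 14 measured genes, with the highest list median of all 54, 3.08. Col1a1 read 313, 377 and 352 on sham and 19835, 11506 and 5862 on UUO (change 4.99 ± 0.38, adjusted p = 3.79e-07). Col3a1 rose from 2020, 1761 and 1504 to 36782, 35364 and 22538 (change 4.14 ± 0.22). Col1a2 reached 41978 on UUO 1, the highest gene value on the 6 arrays, with a change of 3.23 ± 0.22. UUO 3 had the lowest of the UUO values for each of these 3 collagens and UUO 1 the highest. The fibril regulators Col5a1 and Col5a2 rose by 4.28 ± 0.51 and 4.30 ± 0.41. The smallest rise was that of Col18a1 (1.50), a basement membrane collagen that was counted in this list.

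Enzymes that mature collagen were mostly higher as well, 9 of 11 (median 2.00). Lox, the lysyl oxidase that crosslinks collagen and elastin, rose from 57.4, 75.3 and 62.0 to 4402, 4912 and 653 (change 5.23 ± 0.69, adjusted p = 2.66e-05). Serpinh1, the collagen chaperone HSP47, rose from 1724, 2177 and 2176 to 13988, 8875 and 8192 (change 2.32 ± 0.24). The prolyl hydroxylases P4ha1 (0.47) and P4ha2 (0.32) did not pass with all arrays and passed without UUO 2 (0.72 and 0.58, adjusted p = 0.0161 and 0.0109). Small proteoglycans had 8 of 8 higher (median 2.41). Lum (lumican) read 90.3, 58.5 and 89.4 on sham and 6385, 6206 and 340.5 on UUO, a change of 4.93 ± 0.86, while Bgn (biglycan) rose evenly from 4238, 4834 and 4558 to 18281, 16806 and 18247 (change 1.97 ± 0.14). In Lum and Dcn (decorin, 16287, 14847 and 4316 on UUO) the value on UUO 3 was well below the other UUO arrays, and in Bgn it was level with them. Matricellular and elastic fibre genes were higher in 15 of 15 (median 2.99), among them Thbs2 (thrombospondin 2, 4.77 ± 0.49), Mfap5 (a microfibril protein, 4.94 ± 0.69), Tnc (tenascin C, 4.23), Fn1 (fibronectin, 3.87) and Sparc, which went from 3521, 3970 and 3882 to 31856, 23814 and 19277.

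Basement membrane genes split by chain. Of 19 measured 12 were higher and 2 lower (median 0.79). Col4a1 rose from 3384, 3574 and 3630 to 16664, 15898 and 16003 (change 2.20 ± 0.12, adjusted p = 3.23e-08) and Col4a2 by 2.05 ± 0.13; these are the chains of most basement membranes. Col4a4, a chain of the mature glomerular basement membrane, fell from 638, 752 and 701 to 147, 309.8 and 325 (change -1.50 ± 0.33, adjusted p = 0.00154), and Col4a3 of the same network was at -0.56 and did not pass (-1.07 without UUO 2, adjusted p = 0.021). Nid1 (nidogen) rose by 2.60 ± 0.21 and Lama4 of vessels by 2.15 ± 0.42, while Lama1, the laminin chain of proximal tubule, fell by 0.78 ± 0.20.

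Contractile and fibroblast markers were higher in 17 of 18 genes (median 2.64), all but Smtn (smoothelin, 0.13). Acta2, α-smooth muscle actin, read 2708, 3128 and 2555 on sham and 22373, 16262 and 13371 on UUO (change 2.60 ± 0.30, adjusted p = 9.35e-06) on a probe set whose suffix marks possible reading of related actins; on the Acta2 probe set without a suffix, dim in both groups, the change was 0.17 (adjusted p = 0.432). Tagln (SM22α) rose by 2.89, Cnn1 (calponin) by 3.03 and Myh11, the smooth muscle myosin, by 1.89. Pdgfrb, the receptor of pericytes and fibroblasts, rose from 2243, 3170 and 2268 to 10824, 8013 and 8327 (change 1.83 ± 0.21), and Thy1 by 4.34 ± 0.36. Fap, a protease of activated fibroblasts, rose by 3.04 from dim sham levels.

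Fat and urothelial markers moved along with the matrix genes. Adipoq, the adipocyte hormone adiponectin, read 202, 25.3 and 37.8 on sham and 7461, 5281 and 349 on UUO (change 5.37 ± 1.21, adjusted p = 0.00175), so that 2 UUO arrays were far above the third. Of 7 adipocyte markers 5 were higher, 3 without UUO 2, and their summed intensity ran from 6491 to 10345 on sham and from 5883 to 26803 on UUO. Lep (leptin) was dim and did not pass. Of 8 urothelial markers 6 were higher, with a summed intensity of 1189 to 1763 on sham and 8254 to 14945 on UUO: the keratins Krt5 and Krt14 rose by 2.07 ± 0.47 and 3.51 ± 0.57 and the cornified envelope gene Sprr2f from 32.8, 72.8 and 39.3 to 2889, 1566 and 1502. The uroplakins Upk2 (0.05) and Upk1a (-0.06), defining genes of the urothelium, did not pass, and Upk3a rose by 1.31 but did not pass without sham 3 (adjusted p = 0.0698), UUO 1 (0.081) or UUO 2 (0.0536). The part of fat or urothelium in the matrix and contractile changes was not tested.

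TGF-β is the main inducer of matrix genes, and BMPs are ligands of a related pathway. Of 21 genes of TGF-β and BMP signalling 15 were higher and 4 lower (median 1.24), and 15 and 2 without UUO 2. Tgfb1 read 122, 156 and 182 on sham and 306, 198 and 445 on UUO (change 0.99 ± 0.25, adjusted p = 0.00343). Its isoforms Tgfb2 and Tgfb3 rose by 2.54 ± 0.29 and 2.77 ± 0.41, and the receptors Tgfbr1 and Tgfbr2 by 2.54 and 1.87. Ltbp2, a protein of the latent TGF-β binding family, rose by 4.15 ± 0.58. Bmp7, a tubular BMP, fell from 513, 678 and 682 to 95.2, 105 and 165 (change -2.39 ± 0.28, adjusted p = 9.18e-06). Of the signal transducers Smad4 and Smad2 rose by 0.89 and 0.96 and Smad3 fell by 0.83, while Bmp6 (-0.56) and Tgfbr3 (-0.42) were lower with all arrays. Bmp6 did not pass without sham 2, sham 3, UUO 1 or UUO 2 (adjusted p from 0.0545 to 0.122), nor Tgfbr3 without any array but UUO 1 (0.0577 to 0.156).

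Among regulators of the mesenchymal state 6 of 9 were higher: Cdh11, a mesenchymal cadherin, rose from 263, 182 and 162 to 3347, 4621 and 1819 (change 3.94 ± 0.35) and the repressor Zeb2 by 2.78 ± 0.45. Snai1 (0.01) and the epithelial cadherin Cdh1 (0.27) did not pass, and kidney cadherin, Cdh16, fell by 0.70 ± 0.19. In the EGF receptor family 4 of 9 were lower, near the 38.8% of all genes, and none higher. The list median of -0.25 was also near the -0.19 of all genes. Beside Egf these were Erbb3 (-0.72 ± 0.19), Erbb2 (-0.62, adjusted p from 0.0685 to 0.102 without sham 2, sham 3, UUO 1 or UUO 2) and Egfr, at -0.69 ± 0.14 on its brightest probe set. The next Egfr probe set, without a suffix, gave 0.33 (adjusted p = 0.125), and 3 dimmer ones were lower. The ADAM17 substrates Hbegf (0.13) and Tgfa (0.08) did not pass, and Tgfa was lower when its probe sets were averaged (-0.35, adjusted p = 0.0072).

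TNF itself did not rise. Tnf read 139.7, 168 and 167 on sham and 122, 109 and 128 on UUO, a change of -0.40 ± 0.12 (adjusted p = 0.0122) that did not pass without UUO 2 (adjusted p = 0.0537). Its receptors Tnfrsf1a and Tnfrsf1b rose by 0.90 and 1.68. Of 22 genes of the TNF and NF-κB pathway 12 were higher and 3 lower (median 0.70), with 1 lower without UUO 2 and 6 lower after median centring. Birc3, an inhibitor of cell death, rose from 411, 384 and 350.4 to 1669, 2252 and 1571 (change 2.25 ± 0.18), Icam1 by 1.76 ± 0.18, and the NF-κB inhibitor Nfkbia from 3660, 3784 and 3444 to 8776, 9001 and 8742 (change 1.29 ± 0.15, adjusted p = 8.96e-06). Tnfaip3 (A20), a feedback inhibitor of the pathway, and Rel, an NF-κB subunit, did not pass (-0.12 and 0.14), though Rel did after quantile normalization again (0.33, adjusted p = 0.0423). Fadd, the adaptor of death receptors, fell by 0.70 ± 0.17. Of 10 integrins 5 were higher and 1 lower: Itgav and Itgb1, subunits of receptors that bind matrix and latent TGF-β, rose by 2.30 ± 0.51 and 1.98 ± 0.24, Itgav with 3996, 10529 and 3764 on UUO.

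Macrophage and monocyte markers were higher in 24 of 25 genes (median 2.87), and their summed intensity ran from 14825 to 18879 on sham and from 96442 to 138333 on UUO. Lyz2 (lysozyme) read 1305, 1251 and 1504 on sham and 24468, 18622 and 15396 on UUO (change 3.83 ± 0.24, adjusted p = 7.03e-08). Ctss (cathepsin S) rose from 1084, 1103 and 873 to 12536, 13300 and 9329 (change 3.51 ± 0.23), and Adgre1 (F4/80), Cd68 and the complement chains C1qa, C1qb and C1qc by 2.81, 2.93, 2.89, 2.81 and 2.96. Mrc1, the mannose receptor, went from 46.9, 39.1 and 49.5 to 1906, 1690 and 508, a change of 4.71 ± 0.46 from dim sham levels. Csf1r, the receptor for the macrophage growth factor, was already measurable in sham and rose by 1.34 ± 0.18. Msr1 did not pass on its brightest probe set (0.07) and passed on the unsuffixed one (0.83, adjusted p = 0.0297).

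Other leukocyte lists had medians near 0. In neutrophils S100a8 and S100a9, calcium-binding proteins also made by monocytes, rose by 3.34 ± 0.87 and 3.10 ± 0.83, with 1514, 398 and 121 for S100a8 on UUO and UUO 1 far the highest. The granule genes Mpo, Elane, Camp and Ngp were dim and lower by 0.39 to 0.81 (Mpo did not pass without sham 1, sham 3, UUO 2 or UUO 3, adjusted p from 0.0582 to 0.176), and 7 of the 9 neutrophil markers were dim in at least 1 group. Small falls were common at such levels: of 1843 genes dim in both groups 876 were lower and 75 higher, with a median change of -0.35. Of 18 lymphocyte and NK markers 5 were higher and 6 lower (median 0.13), near the 25.6% and 38.8% of all genes. Without UUO 2 the counts were 8 and 2, and the median was -0.10 after median centring. Cd3g of the T cell receptor complex rose by 1.15 ± 0.25, and Zap70, a kinase of T cells, fell by 0.69 ± 0.15. Ighm, the immunoglobulin µ chain, read 757, 537 and 406 on sham and 9932, 1341 and 1025 on UUO, with UUO 1 far above the rest, and its change did not pass without UUO 1 (adjusted p = 0.0896) or sham 3 (0.0608). The brightest Ighm probe set without a suffix gave -0.26 (adjusted p = 0.25). The average of its 11 probe sets was 0.12 (adjusted p = 0.645), and several of them were lower.

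Chemokines that attract monocytes and neutrophils rose, with 20 of 26 chemokine and receptor genes higher and none lower (median 1.33). Ccl8 rose from 103, 149 and 113 to 7721, 3881 and 1360 (change 4.84 ± 0.56, adjusted p = 8.82e-06). Cxcl1, a ligand of the neutrophil receptor CXCR2, rose from 69.9, 65.9 and 68.6 to 1647, 2079 and 1233 (change 4.57 ± 0.30, adjusted p = 1.05e-07), and Cxcl2, a ligand of the same receptor, by 3.52. Ccr2, the monocyte receptor for Ccl2, read 1111, 2274 and 397 on UUO (change 4.11 ± 0.56), and Ccl2 rose by 2.33. Cxcl12 (7062, 3458 and 2009 on UUO) spread over both sides of its sham values and did not pass (0.14). The promoters of Cxcl1 and Cxcl2, taken from RefSeq (assembly GRCm38.p6), are shown because both genes rose together and both hold a κB site, the site bound by NF-κB, searched on both strands in the 250 bases before each start. They lie at chr5:90890995-90891244 and chr5:90903649-90903898, both on the + strand, and capitals mark the κB match, which reads the same 11 letters in both and overlaps none of the other motifs searched.
Cxcl1: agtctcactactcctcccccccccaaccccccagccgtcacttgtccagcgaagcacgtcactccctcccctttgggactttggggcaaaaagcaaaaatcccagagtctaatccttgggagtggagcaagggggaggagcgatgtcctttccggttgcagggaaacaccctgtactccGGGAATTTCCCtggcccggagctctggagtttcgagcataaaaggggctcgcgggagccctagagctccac
Cxcl2: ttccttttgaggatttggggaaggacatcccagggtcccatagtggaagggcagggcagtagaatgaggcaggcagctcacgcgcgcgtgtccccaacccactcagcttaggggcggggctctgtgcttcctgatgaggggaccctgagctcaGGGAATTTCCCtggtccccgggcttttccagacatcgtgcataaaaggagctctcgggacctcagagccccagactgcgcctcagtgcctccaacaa

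A κB match was found in 6 of 17 promoters of the chemokine list (35.3%) and in 8 of 22 of the TNF and NF-κB list (36.4%), against 8.79% of the 12566 promoters of all measured genes with an entry. Among promoters of genes that were higher the share was 10.6%, and of genes that were lower 8.24%. Promoters matched 17 of 26 chemokine genes, and 9887 of 12393 measured genes, some with several starts. The 6 chemokine promoters with a match belong to 6 genes, of which 5 rose and Ccl20 (-0.04) did not pass. The 8 of the TNF and NF-κB list belong to 6 genes, with 3 from Nfkb2 alone, of which 4 rose and Tnfaip3 and Rel did not pass. Other lists had shares of the same order, among them immediate early genes (6 of 19, 31.6%), interferon-induced genes (7 of 26, 26.9%), collagen processing (2 of 6, 33.3%) and cytochrome P450 (2 of 8, 25.0%). A match of letters is a description and not a bound site.

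Osmr, the oncostatin M receptor, rose from 268, 207 and 201 to 2105, 2819 and 1861 (change 3.32 ± 0.30, adjusted p = 1.40e-06), and Il6st (gp130), with which it pairs, by 1.78 ± 0.21. Of 15 interleukin and myeloid growth factor genes 9 were higher and 1 lower (median 1.51). Il33, an alarmin, rose from 354, 269.9 and 252 to 3722, 3020 and 1364 (change 3.10 ± 0.42), Il1b by 1.57 and Csf1 by 1.44. Il6 had a change of 2.31 from dim levels and did not pass (3.25 without UUO 3, adjusted p = 0.0211), and Mif, a bright tubular cytokine, fell by 0.75 ± 0.16. Socs3, a feedback inhibitor induced through STAT3, rose from 199, 322 and 263 to 3734, 3578 and 3238 (change 3.78 ± 0.32, adjusted p = 9.76e-07), and Stat3 by 1.26 ± 0.20. Of 15 acute phase genes 10 were higher (median 2.71), among them Cp (ceruloplasmin, 1108, 748 and 778 on sham and 7263, 11499 and 9864 on UUO), Serpina10 (4.19 ± 0.27), Serpina3n (3.46) and Saa3 (2.78).

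Interferon-induced and class I genes were higher in 22 of 22 (median 1.13). Ubd, a ubiquitin-like modifier, read 84.8, 86.5 and 71.9 on sham and 1653, 1284 and 1424 on UUO (change 4.16 ± 0.28, adjusted p = 1.21e-07). Ifit2 and Gbp3 rose by 2.60 ± 0.47 and 3.53 ± 0.46, both highest on UUO 2. B2m, the light chain of class I molecules, rose evenly from 9643, 11512 and 10684 to 21238, 20850 and 20432 (change 0.98 ± 0.11). MHC class II genes were higher in 6 of 6 (median 1.58), and for Cd74, the invariant chain, UUO 3 was highest (2008, 2709 and 3007 on sham and 7779, 7929 and 14411 on UUO). Complement split, with 5 of 12 higher and 3 lower: the initiators C1ra and C1s1 rose by 1.84 ± 0.19 and 2.77 ± 0.23 and the inhibitor Serping1 from 3701, 3518 and 3438 to 12938, 10525 and 12568, while Cfb (factor B, -0.55, adjusted p = 0.0525 without UUO 2), Masp1 (-0.70) and Cd59a (-0.62) were lower. Masp1 did not pass when its probe sets were averaged (-0.18, adjusted p = 0.178) or on its unsuffixed probe set (-0.04, adjusted p = 0.9).

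Immediate early genes were higher in 13 of 18 (median 1.47). Fos read 129.6, 123 and 102 on sham and 953, 1544 and 645 on UUO (change 3.07 ± 0.45, adjusted p = 6.40e-05), Klf6 rose by 3.30 ± 0.34, and Egr1, Jun, Atf3 and Myc by 2.39, 2.19, 1.76 and 1.47. Jund (0.30) did not pass, and Egr3 (-0.66) and Fosl2 (-0.44) were lower.

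Proliferation genes rose as well, with 25 of 30 cell cycle genes higher and 1 lower (median 1.57). Birc5 (survivin), which acts at the mitotic centromere, read 70.3, 67.4 and 54.0 on sham and 853, 399 and 467 on UUO (change 3.09 ± 0.34, adjusted p = 5.64e-06). Top2a, the topoisomerase of dividing cells, rose from 73.9, 48.5 and 73.7 to 945, 667 and 498 (change 3.40 ± 0.38, adjusted p = 6.59e-06). Its other probe set, without a suffix and dim on UUO, fell by 0.92 (adjusted p = 0.000159). Cdk1 and Ccnb2, kinase and cyclin of mitotic entry, rose by 2.54 and 2.43. Pcna, the sliding clamp of DNA replication, rose from 1829, 1173 and 1315 to 3945, 4782 and 3929 (change 1.57 ± 0.28), and the replication licensing genes Mcm4, Mcm5 and Mcm6 by 2.05, 1.43 and 1.28. The inhibitor Cdkn1a (p21) rose by 1.88. Ccnd1, cyclin D1, fell from 3087, 2786 and 3270 to 1638, 1364 and 2325 (change -0.81 ± 0.18, adjusted p = 0.00163), and Mcm2 (0.33, or 0.52 without UUO 2, adjusted p = 0.0468), Ccne1 (0.12), E2f1 (-0.05) and Tyms (-0.04) did not pass.

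The promoters of 3 mitotic genes that rose together are shown from RefSeq (assembly GRCm38.p6), 250 bases before the start, with CCAAT boxes (CCAAT on either strand, bound by NF-Y) in capitals. Top2a lies at chr11:99024190-99024439, Cdk1 at chr10:69352913-69353162 and Ccnb2 at chr9:70421555-70421804, all on the - strand, and the boxes number 6, 3 and 3 without overlap with another motif searched.
Top2a: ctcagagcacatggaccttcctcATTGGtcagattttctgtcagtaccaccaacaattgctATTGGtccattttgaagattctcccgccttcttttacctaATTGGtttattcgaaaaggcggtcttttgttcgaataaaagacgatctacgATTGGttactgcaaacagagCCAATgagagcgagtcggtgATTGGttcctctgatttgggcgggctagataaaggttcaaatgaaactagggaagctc
Cdk1: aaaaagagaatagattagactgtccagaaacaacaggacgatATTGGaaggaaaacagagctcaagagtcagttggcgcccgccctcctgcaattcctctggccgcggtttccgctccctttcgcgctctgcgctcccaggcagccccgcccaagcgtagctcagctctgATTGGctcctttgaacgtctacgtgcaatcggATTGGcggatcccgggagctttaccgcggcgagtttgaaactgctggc
Ccnb2: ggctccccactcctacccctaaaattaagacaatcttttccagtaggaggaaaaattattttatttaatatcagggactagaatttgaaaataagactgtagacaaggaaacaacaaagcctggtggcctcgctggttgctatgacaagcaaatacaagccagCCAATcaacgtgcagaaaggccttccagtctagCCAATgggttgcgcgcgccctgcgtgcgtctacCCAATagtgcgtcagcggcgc

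The CCAAT box occurred in 18 of 26 promoters of the cell cycle list (69.2%, from 24 of its 30 genes), against 34.7% of all promoters. The letters TTTGAA, the cell cycle homology region, occurred in 6 of 26 (23.1%) against 11.5%. Mcm2, which did not pass, holds both. Neither motif was particular to the cell cycle list. TTTGAA was in 5 of 17 chemokine promoters (29.4%), 5 of 19 of TGF-β and BMP signalling (26.3%) and 3 of 8 of cytochrome P450 (37.5%). The CCAAT box was in 10 of 18 promoters of antioxidant enzymes (55.6%), 13 of 26 of interferon-induced genes and 3 of 4 of MHC class II. Other lists had lower shares, such as 0 of 8 in principal cells for both motifs. Genes called higher and lower did not stand out as a whole, with a CCAAT box in 34% and 35.6% of promoters. Of 6 motifs searched, the CArG box of contractile genes was found in 2 of 13 promoters of the fibroblast and smooth muscle list, those of Myl9 and Cnn2, against 1.34% of all. Its share was higher in immediate early genes (4 of 19, 21.1%) and skeletal muscle markers (2 of 7, 28.6%), and most other lists held no match. The AP-1 site (TGANTCA) was in 5.67% of all promoters, and 1 exact palindromic spelling of the site of HNF1, a proximal tubule factor, in 0 of 12566, which says nothing about other forms of that site.

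Apoptosis genes moved both ways, activators and inhibitors alike. Of 21 genes 13 were higher and 5 lower (median 0.53), 11 and 2 without UUO 2. Pmaip1 (NOXA), a BH3-only activator, rose from dim values of 31.8, 17.9 and 19.5 to 260.1, 944 and 120.3 (change 3.79 ± 0.63), and Apaf1, the apoptosome scaffold, by 2.45 ± 0.32. The survival gene Mcl1 rose from 2045, 1604 and 1688 to 5559, 5974 and 4627 (change 1.60 ± 0.21), and Birc2 and Xiap, inhibitors of caspases, by 2.18 and 2.13, with Xiap not passing without sham 2 (adjusted p = 0.0599), sham 3 (0.0647) or UUO 2 (1.41, 0.0996). Bid, which links death receptors to mitochondria, fell from 1884, 1936 and 2068 to 704, 624 and 894 (change -1.42 ± 0.16, adjusted p = 6.74e-06), and Bcl2l1 (BCL-XL) by 0.69 ± 0.18. In the renin-angiotensin list 1 gene was higher and 2 lower with all arrays, none without UUO 2, and Agt, angiotensinogen, overlapped between groups (1601, 2278 and 2194 on sham and 924, 1010 and 1826 on UUO) and did not pass without sham 2, sham 3, UUO 1 or UUO 2 (adjusted p from 0.0568 to 0.0771).

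**Figure D3:**
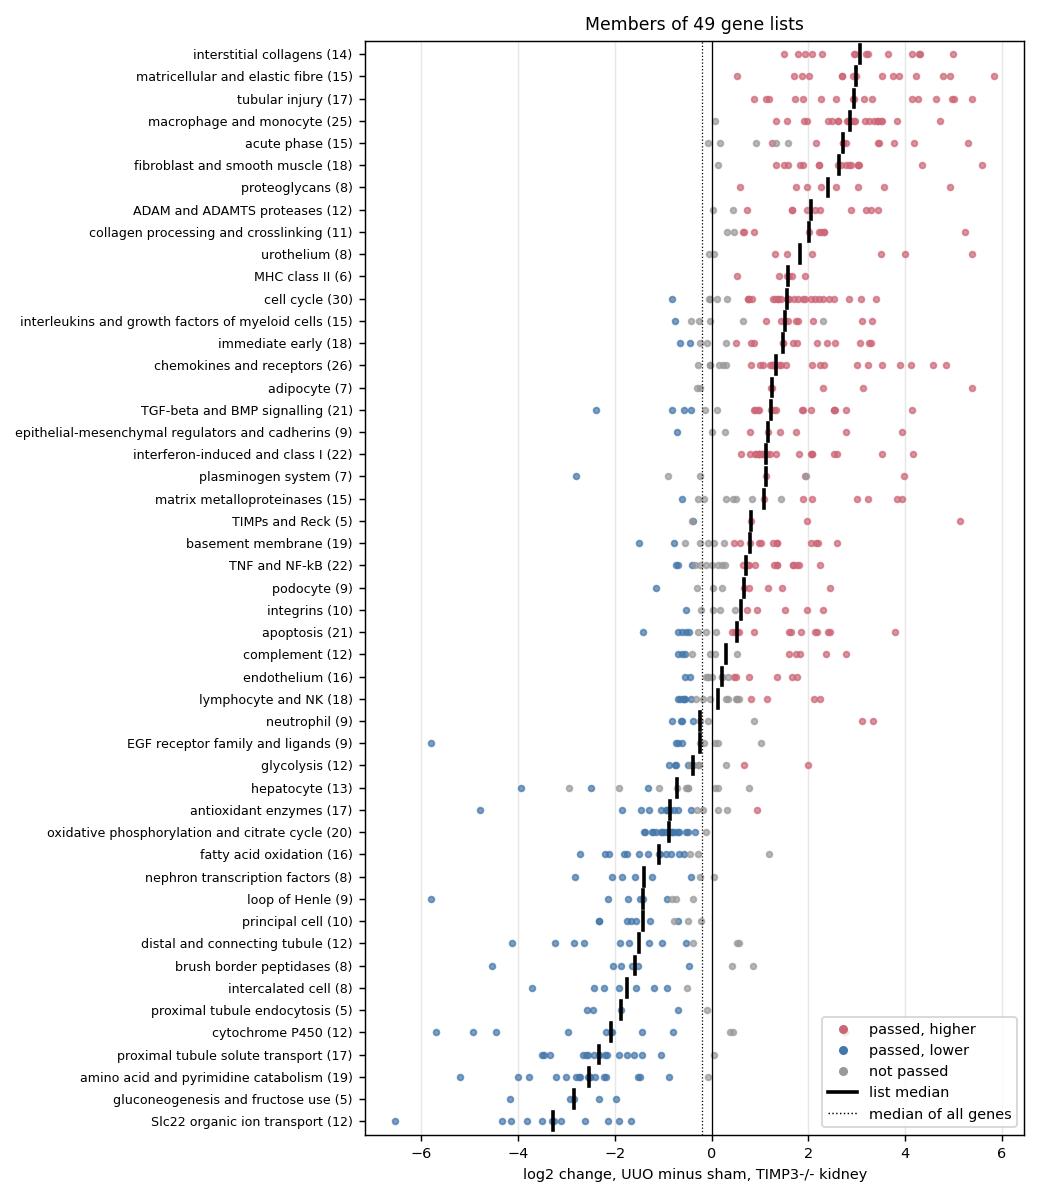
Each row is 1 of 49 gene lists with its number of measured genes, each point the log2 change of a member (UUO minus sham, TIMP3-/- kidney), the thick bar the list median and the dotted line the median of all genes, -0.19. Lists of matrix, injury and macrophages lie at the right with medians of 2.87 to 3.08, and tubular transport and metabolism at the left down to -3.28.

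The 3 UUO kidneys did not respond to the same extent. Of 34 lists with a median past 1 on the log2 scale, UUO 3 had the smallest mean change in 29, UUO 2 in 5 and UUO 1 in none, while UUO 1 had the largest in 25. Among the 4808 lower genes UUO 3 was the highest UUO array in 3792, and UUO 2 the lowest in 3430. The spread between lists was uneven. Tubular injury changed by 3.12, 3.08 and 3.04 on UUO 1, 2 and 3, immediate early genes by 1.36, 1.34 and 1.33, and interferon-induced genes by 1.73, 1.44 and 1.60. Proteoglycans changed by 3.19, 3.31 and 1.24, matricellular genes by 4.02, 3.38 and 2.28, adipocyte markers by 2.57, 2.43 and 0.46 and principal cell genes by -1.79, -1.51 and -0.62. MHC class II went the other way, 1.37, 1.20 and 1.77. The median within-group SD was 0.255 on UUO and 0.186 on sham. Leaving out UUO 2 gave 11305 probe sets that passed, leaving out UUO 3 gave 14853, and 256 and 264 of the 273 named genes kept their direction and side of the threshold. With the 6 TIMP3-/- arrays fitted alone 10694 probe sets passed, and 254 of the 273 genes kept their direction and side of the threshold. In that fit 19 of the 273 no longer passed (adjusted p from 0.0534 to 0.129). They were Agt, Agtr2, Aldoa, Bad, Bmp6, Casp9, Cd79b, Cyp11a1, Diablo and Enpep. The rest were Flt1, Ighm, Mas1, Nfkbib, Star, Tcf21, Tgfbr3, Timp4 and Tnf. Of genes named outside the 273, Erbb2, Fam136a, Mpo, Oit3, Pla2g5 and Saa3 did not pass (0.0597 to 0.128), and Il6 did (0.0383). Array weights favoured UUO 1 (1.60, against 0.23 and 0.34 on UUO 2 and 3). With them Acadl, Atp1b1, Car2, Ccl20, Col4a3, Csf3r, Cxcl12, Hmox1, Hsd11b2, Il6, Lep, Mcm2, Mmp9, P4ha1, P4ha2, Pax8, Pdk4, Plau and Umod passed (0.000381 to 0.0489). Mpo and Tgfbr3 did not (0.0845 and 0.119). After median centring Acadl, Atp1b1, Car2, Lep, Podxl, Timp3, Tnfaip3 and Umod passed (0.00219 to 0.0459), all lower. Cd79b, Fbln5 and Ier3, higher as deposited, did not (0.0942 to 0.246).

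**Figure D4:**
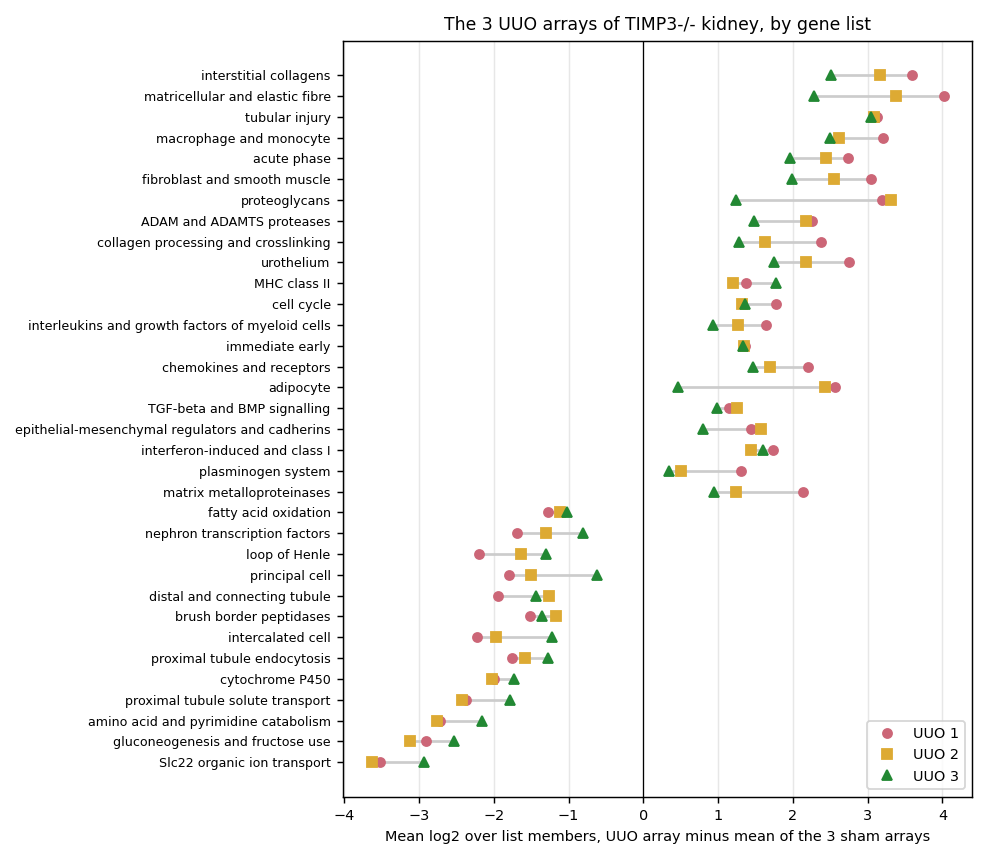
For 34 gene lists with a median change past 1, each symbol is the mean log2 value over the measured members on 1 UUO array of TIMP3-/- kidney minus the mean of the 3 sham arrays. The symbols of UUO 1, 2 and 3 coincide for tubular injury (3.12, 3.08 and 3.04) and lie far apart for proteoglycans (3.19, 3.31 and 1.24), with UUO 3 nearest 0 in 29 lists.

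Set beside the other genotypes, the response of TIMP3-/- kidney had a wider spread and ran mostly in the same direction. Genes that passed numbered 2059 higher and 1979 lower in WT and 1940 and 2676 in TIMP2-/-, and the SD of the change over all genes was 1.07 in TIMP3-/-, 0.783 in WT and 0.728 in TIMP2-/-. Of the 3173 higher genes of TIMP3-/-, 1640 were also higher in WT (51.7% of these and 79.7% of the WT genes) and none was lower. Of the 4808 lower genes, 1720 were also lower in WT (35.8% and 86.9%) and 3 were higher there: Gpt2, Oit3 and Pla2g5. With TIMP2-/-, 1754 higher and 2535 lower genes were shared (90.4% and 94.7% of the TIMP2-/- genes) and 1, Fam136a, was opposite. These 4 were named after their values were seen. Pla2g5 did not pass in TIMP3-/- without sham 2, sham 3, UUO 1 or UUO 2 (adjusted p from 0.0526 to 0.107), nor Fam136a without any array but sham 2 (0.0525 to 0.136). Oit3 did not pass after quantile normalization again (-0.13, adjusted p = 0.239). Among genes lower in all 3 genotypes, 1335 in number, the median change was -1.22 in TIMP3-/-, -0.73 in WT and -0.75 in TIMP2-/-. Among the 1273 genes higher in all 3, the medians were 1.42, 1.31 and 1.13.

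The test of the difference itself found no gene that passed. For the response in TIMP3-/- minus that in WT, 0 of 22626 probe sets passed in limma's test (0.00%), the smallest adjusted p was 0.167, and 5852 had an unadjusted p under 0.05. For TIMP3-/- minus TIMP2-/- it was 0 (0.00%), 0.0611 and 2266. These counts depended on arrays: without UUO 3 of TIMP3-/- they were 47 and 335, without UUO 1 or UUO 2 of WT the first was 4 and 3, and with array weights 7266 and 3233. The weights were 5.71, 0.38 and 0.52 on WT UUO 1, 2 and 3 and 1.60, 0.23 and 0.34 on those of TIMP3-/-. In both groups the weighted values rested mostly on UUO 1. Values are therefore given side by side. Hpd changed by -5.20 in TIMP3-/-, -1.21 in WT and -2.42 in TIMP2-/-, and Slc22a7 by -6.54, -3.59 and -2.67. Both genes were chosen as being among the largest falls in TIMP3-/-. This choice favours smaller falls in the other genotypes, so these values alone do not show a difference between genotypes. Egf changed by -5.80, -3.39 and -3.09, and Timp2 by 1.97 in TIMP3-/- and 1.82 in WT. For Havcr1 (5.38, 5.44 and 6.29) and Lcn2 (4.97, 5.99 and 5.68) the value in TIMP3-/- was the smallest of the 3. On WT UUO 2 the hepatocyte gene Alb, for albumin, read 28106, against 54.0 to 89.2 on the TIMP3-/- UUO arrays, and its part in the differences was not tested. The median of the Slc22 list was -3.28, -2.14 and -1.48, that of ADAM and ADAMTS proteases 2.06, 0.83 and 1.37, and that of MHC class II 1.58, 2.14 and 1.90. The Slc22 list had the lowest TIMP3-/- median of all lists, so that the limit given for Hpd and Slc22a7 applies to it too.

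**Figure D5:**
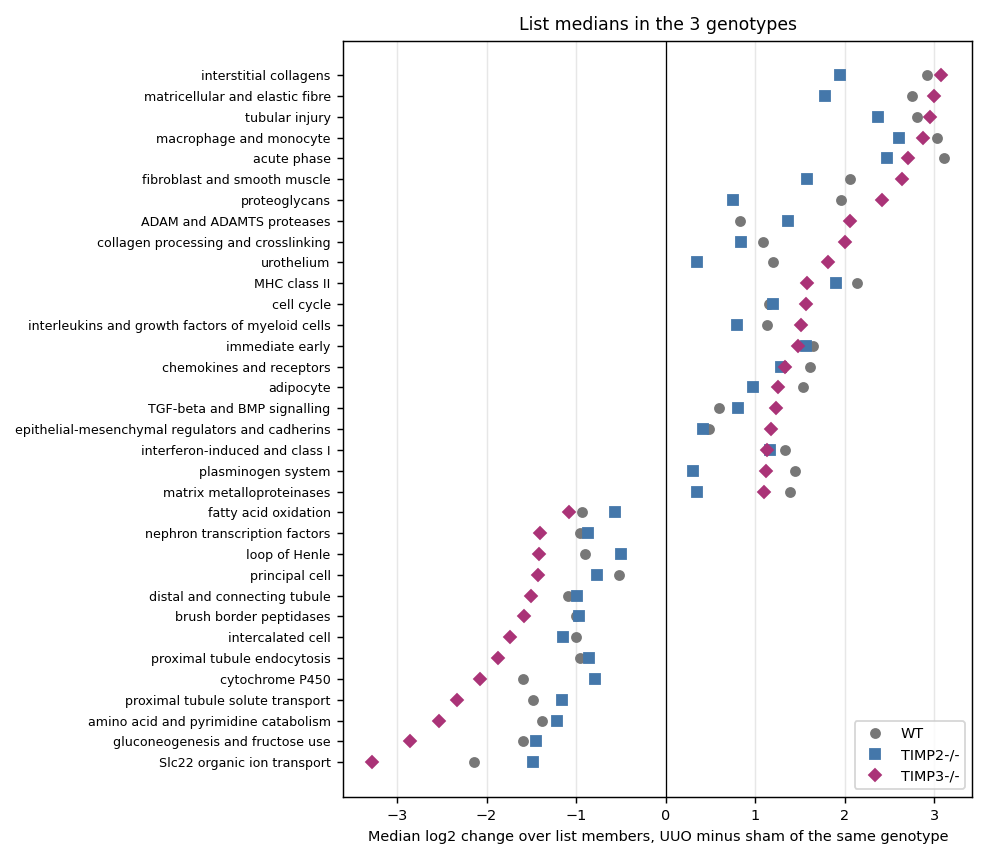
Median log2 change (UUO minus sham of the same genotype) over the members of 34 gene lists in WT, TIMP2-/- and TIMP3-/- kidney, 3 arrays per group. The TIMP3-/- medians lie below the other 2 genotypes in the 13 lists that fell and, of the 21 that rose, above both in 12, between them in 6 and below both in 3. The 34 lists were chosen by the size of their median in TIMP3-/-, which favours larger changes in that genotype. All lists were read on the same arrays, so these counts are not independent and do not test a difference between genotypes.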

How the data were processed

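The deposited values were linear intensities, 1 per probe set and array. RMA is named per the submitters' processing notes. Its version and the step from its usual log2 output to linear values are not given in the sources used here. Of 22690 probe sets, 64 controls were left out, 20380 of the rest had 1 gene symbol in the platform annotation, 691 several and 1555 none, and only the first kind named a gene. The probe set with the highest mean stood for a gene (12393 genes, 12377 of them matched to RefSeq). Values were taken to log2 with no pseudocount.

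A model of 6 group means was fitted to 18 arrays with limma 3.58.1 in R 4.3.3 (12 residual degrees of freedom), with Benjamini-Hochberg adjustment over all probe sets and a threshold of 0.05. An exact permutation test of 3 against 3 arrays cannot go below p = 0.1 and was not used. The number of arrays limits the precision. Tested on simulated data, the fit recovered 64% of probe sets raised by a log2 of 1 and 92% of those raised by 2. Far fewer probe sets were changed there than passed here, and their noise was drawn independently. These rates therefore do not describe the present comparison. Genes given with array values or a standard error were chosen by rule: 14 fixed genes, the 12 largest rises and 12 largest falls that passed without overlap, and from each list the 3 largest changes that passed without overlap, the 2 brightest genes, and up to 5 genes that passed against the direction of most of the list. Other list genes are named with their change alone and were chosen after their values were seen. The members and the 54 lists were chosen with earlier results of these data known. Alternatives covered the arrays fitted, normalization, dim probe sets, pseudocount, probe set choice, array weights, a replicate block and leaving out each array. Promoter windows came from RefSeq tables of GRCm38.p6, and no protein sequences were used here.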

Additional observations from a re-analysis of the deposited data

How the results depend on the processing

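Obstruction against sham in TIMP3-/- kidney gave 14145 probe sets that passed. The count was 8001 with 1 probe set per gene and 8014 with the mean of a gene's probe sets, where fewer features were tested, and 11035 to 14853 with each array left out in turn. It lay between 9673 and 16629 under the other alternatives run (the 6 arrays alone, quantile normalization again, median centring, removal of the dimmest 25% of probe sets, a pseudocount of 50, a trended and robust fit, array weights, unsuffixed probe sets, and, added after seeing the data, leaving out 3 arrays that stood apart). For the response in TIMP3-/- minus WT, the count of 0 became 7266 with array weights, and 0 to 47 with an array left out. For TIMP3-/- minus TIMP2-/-, the count of 0 became 27 with the 12 arrays of those genotypes, 1 with 1 probe set per gene, 1 with quantile normalization again, 1 with the pseudocount, 3233 with array weights, and 0 to 335 with an array left out. The cause was not tested.

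With the replicate number as a block the counts were 14279, 0 and 1. Same-numbered sham and UUO arrays of TIMP3-/- deviated with correlations of -0.32, -0.55 and 0.50. These values were mixed in sign and came from few arrays per group. They cannot decide whether the numbers pair the arrays. Unsuffixed probe sets reversed Egfr (0.33), Ighm (-0.26) and Top2a (-0.92), and the mean of probe sets reversed Tgfa (-0.35). Of 273 genes chosen by rule, 256 to 269 kept their direction and side of the threshold with a TIMP3-/- array left out.

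With 3 arrays per group, RNA of frozen whole kidney and values already normalized, small changes, dim genes and shifts common to all transcripts are poorly resolved. The labels give biological replicates without the animals' litter, age or sex.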

Other observations

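Hepatocyte, erythroid and skeletal muscle markers were measured as signs of other tissue. Ttr, the plasma carrier transthyretin, also made outside the liver, read 12217, 11239 and 12448 on the TIMP3-/- sham arrays and 929, 737 and 692 on the UUO arrays (change -3.94, adjusted p = 0.0001 in limma's test). Of 13 hepatocyte markers 3 were lower and 10 did not pass, while 9 were lower without overlap between the groups, against 39.5% of all genes. Alb, for albumin, was at -2.95 (adjusted p = 0.0813). With the 6 TIMP3-/- arrays fitted alone 7 were lower and 1 higher, and Alb passed at -2.95 (adjusted p = 0.000333). Without the 3 arrays that stood apart, an alternative chosen after seeing the data, 8 were lower and 1 higher, and Alb passed at -2.73 (adjusted p = 0.00419). Of 4 red cell markers 4 were lower, with Alas2 at -2.82. Of 6 skeletal muscle markers 3 were lower and 1 was higher: Acta1, skeletal actin, went from 49.5, 52.9 and 54.2 to 612.5, 221.2 and 92.0. Of 5 adrenal markers 4 were lower, from -0.74 to -0.40, and Star did not pass without UUO 2 (adjusted p = 0.131), sham 1 (0.0577) or sham 3 (0.133), nor Cyp11a1 without sham 3 (0.0545). Dim in at least 1 group were 3 of the 5 adrenal, 3 of the 6 skeletal muscle and 2 of the 4 red cell markers. Of all genes 38.8% were lower, and genes dim in both groups had a median change of -0.35.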
